A study of Mus musculus with 3 samples.

Results

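The genes described here are secreted and membrane proteases and their inhibitors, read in macrophages of the mouse kidney. Members were taken by gene symbol alone: matrix metalloproteinases (Mmp), Adam, Adamts and Adamtsl genes, Timp genes, serpins, cystatins, the urokinase and tissue plasminogen activator genes with the urokinase receptor, and genes of the whey acidic protein (WAP) family. The name rule found 65 of the 14811 listed genes: 7 Mmp, 12 Adam, 10 Adamts or Adamtsl, 3 Timp, 3 plasminogen activation, 17 serpin, 4 cystatin and 5 WAP genes. It also took in 4 Cstf genes, which encode cleavage stimulation factors of messenger RNA 3′ end processing and are neither proteases nor inhibitors. Several further members carry a family name without the activity. Serpinh1 is a collagen chaperone, Plaur is a receptor, and the Adamtsl proteins lack a protease domain.

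The kidneys of 3 C57BL/6J mice gave 1 RNA-seq library of sorted macrophages each, and the 3 libraries form 1 group. All 3 mice had received phosphate-buffered saline (PBS) intravenously 1 h before the kidneys were taken, and no genetic change or other agent is labelled. The sources used here do not state the age or sex of the mice or the markers used for sorting. With 1 group there is no comparison between conditions, so the results are levels, their spread over mice, and ratios of genes read in the same library.

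Extracellular proteolysis works through enzymes made as inactive precursors and held in check by inhibitors that bind them. Metalloproteinases of the Mmp, Adam and Adamts families use a zinc ion to cut matrix or to release the outer part of membrane proteins, and Timp proteins block them. Serpins trap mostly serine proteases, cystatins block cysteine proteases such as the cathepsins, and macrophages are a known source of all 3 kinds of protein.

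Levels are normalised read counts, that is, reads per gene scaled between libraries by the authors, after removal of a constant of 1 that the deposited values carry. Where genes are compared with each other the level is divided by exon length in kb. The libraries held 50646558 to 56718534 reads over the listed genes. After scaling, the summed level over these genes was 41090917, 31477806 and 35696101 in mice 1, 2 and 3. A normalised level is therefore not a share of the reads, and close orders between mice depend on the scaling. Where no read was counted, the upper limit of 3 reads corresponds to a level of 2.42 in mouse 1, 1.66 in mouse 2 and 2.11 in mouse 3, for counting error alone. Of 10 macrophage markers, 9 reached 10 in each library, and Itgam, the exception, was at 1021, 446 and 5.64. Markers of other kidney cells were also read: the summed level of the 6 proximal tubule markers was 6599, 26020 and 3987 in mice 1, 2 and 3, with 3 of 6 reaching 10 in each library. The neutrophil gene S100a9 and the T cell gene Cd3e were at 0 in all 3 libraries. In such bulk samples, fewer cells of a type and less RNA per cell cannot be told apart.

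Of the 65 members, 19 were at a normalised read count of 10 or more in every mouse (29.2%), against 44.4% of all listed genes. In every mouse 10 members reached 1000 or more (15.4%, against 14.7% of all genes). A value above 0 in every mouse was seen for 37 members (56.9%, against 71% of all genes). A further 29 members reached 10 in 1 or 2 mice only (44.6%, against 39%), and 17 stayed under 10 in each library (26.2%, against 16.7%). At the other end, 9 members were at 0 in all 3 mice (13.8%, against 6.59%). The median over members of the mean level was 91.5, below the 254 of all listed genes. The members thus held a few abundant transcripts and many that were low or seen in some mice only.

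Per kb of exon, 5 members were among the 300 highest of the listed genes: Wfdc17, Cst3, Cstb, Mmp13 and Mmp12. Wfdc17, a small secreted WAP protein of macrophages, and Cst3, the secreted cysteine protease inhibitor cystatin C, stood apart from all other members. Together the 65 members took 1.68% ± 0.114 (SD, n = 3) of the reads, and without Cst3 and Wfdc17 the remaining 63 took 0.334% ± 0.0976. To place the 4 leading secreted products on the genome, the 150 bases before a listed start of each gene are given from RefSeq (GRCm38.p6, a later build than the mm9 of the deposited table), 5′ to 3′ on the strand of the gene. Capitals mark matches to 3 motifs: TGANTCA, the site of AP-1 factors (both strands), AGGAAG, a core shared by sites of ETS factors (both strands), and TATAAA, the TATA box (gene strand).
Mmp13, chr9:7272364-7272513, plus strand: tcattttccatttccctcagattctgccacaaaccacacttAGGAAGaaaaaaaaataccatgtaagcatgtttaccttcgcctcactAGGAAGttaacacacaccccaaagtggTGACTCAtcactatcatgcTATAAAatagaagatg
Mmp12, chr9:7347224-7347373, plus strand, the second of its 2 listed starts: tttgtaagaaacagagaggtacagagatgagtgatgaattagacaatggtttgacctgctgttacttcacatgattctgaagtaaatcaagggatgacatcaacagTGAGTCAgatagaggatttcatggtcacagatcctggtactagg
Wfdc17, chr11:83703906-83704055, plus strand: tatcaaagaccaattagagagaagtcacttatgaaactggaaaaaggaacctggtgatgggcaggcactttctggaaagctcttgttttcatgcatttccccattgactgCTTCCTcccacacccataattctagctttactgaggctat
Cst3, chr2:148875513-148875662, minus strand: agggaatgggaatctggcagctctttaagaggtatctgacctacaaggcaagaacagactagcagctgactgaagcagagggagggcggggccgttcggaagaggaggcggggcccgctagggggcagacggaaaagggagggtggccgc
The printed windows of Mmp13 and Mmp12, which are neighbouring genes on chromosome 9, each hold 1 match to TGANTCA. That motif occurs in 4.24% of the 32851 windows of this length that were counted, and in 6 of the 55 windows found for 48 members. The count left out 1 chromosome. The first listed start of Mmp12 has no such match but 1 to AGGAAG, which 19.7% of the windows counted hold. TATAAA, found in the Mmp13 window, occurs in 4.84% of the windows counted. A further motif, GAGGAAGT (PU.1, both strands), was counted but not marked. It was in 1 of the 55 member windows, that of the first listed start of Mmp12 (1.82%, against 1.63% of the windows counted). The Cst3 window has none of the 3 marked motifs. A match is a string of letters and not a measured site.

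**Figure D1:**
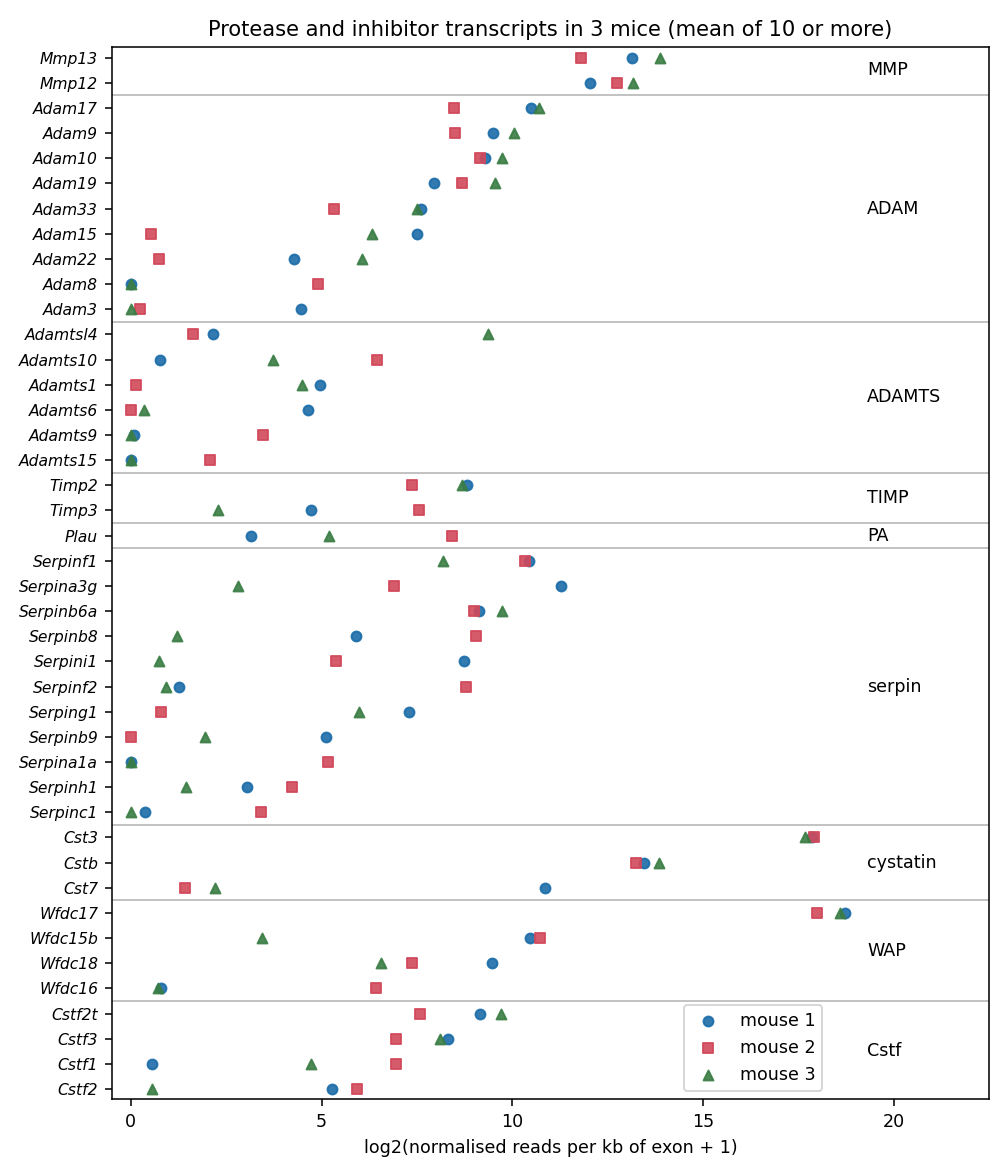
Level of 42 of the 43 members with a mean of 10 or more, as log2 of normalised reads per kb of exon plus 1 (x axis), for mouse 1 (circles), mouse 2 (squares) and mouse 3 (triangles), grouped by gene family (PA, plasminogen activation). Wfdc17 and Cst3 lie to the right of all others in each mouse, while the points of many ADAMTS and serpin genes are far apart.

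The matrix metalloproteinases were represented by Mmp12 and Mmp13. Mmp12, the macrophage elastase, was at 30351, 49594 and 65895 normalised reads in mice 1, 2 and 3 (48613 ± 17792, SD, n = 3). Mmp13, collagenase 3, which cuts fibrillar collagen, was at 23960, 9509 and 40402 (24624 ± 15457). Both were highest in mouse 3, and their order per kb changed between mice: the ratio of Mmp12 to Mmp13 was 0.468, 1.93 and 0.602. This order depends on the exon lengths used, 7.24 kb for Mmp12 and 2.67 kb for Mmp13. Not divided by length, Mmp12 was above Mmp13 in each mouse. The other 5 listed Mmp genes were under 10 in every mouse. Among them Mmp14, the membrane enzyme that activates the Mmp2 precursor, was at 7.26, 0 and 3.52, and Mmp2, gelatinase A, at 5.65, 0.555 and 7.75. Mmp23 and the membrane-anchored Mmp25 were at 0 in all libraries, and Mmp17 did not exceed 3.33. The 7 genes took 0.206% ± 0.0843 of the reads.

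Among inhibitors of metalloproteinases, Timp2 was at 1751, 637 and 1602 normalised reads in mice 1, 2 and 3. Timp3, which binds to matrix and is the Timp protein known to block Adam17, was at 206, 1510 and 31.7, so that it ranged far more widely than Timp2. Timp1, a secreted inhibitor often induced in inflammation, was at 0 in every mouse. Per kb of exon, Mmp12 and Mmp13 together exceeded the sum of the Timp genes by 27.7-fold, 29.9-fold and 58.3-fold in mice 1, 2 and 3. Mmp12 alone was 9.33-fold, 41.9-fold and 22.1-fold above Timp2, and Mmp13 was 19.9-fold, 21.8-fold and 36.8-fold above it. Against the floor of 3 reads per library, Mmp12 was at least 1539-fold above Timp1 and Timp2 at least 87.1-fold above it. These are ratios of transcripts, not of protein or activity.

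Every gene of the table with a mean of 10 or more was tested per kb against Timp2 of its own library (limma, Benjamini-Hochberg adjustment over 11602 genes). Of the 42 members tested, 5 lay above Timp2 (11.9%, against 11.5% of all genes tested) and 6 below (14.3%, against 7.27%). The 5 were Wfdc17, Cst3, Cstb, Mmp13 and Mmp12, each above Timp2 in 3 of 3 mice. The log2 difference was 4.65 ± 0.48 SE for Mmp13 (adjusted p = 4.86e-20, limma) and 4.36 ± 0.49 SE for Mmp12 (adjusted p = 6.17e-17, limma). These 5 calls held when any 1 mouse was left out. Their errors, however, come from the general trend of spread with level. Without that trend, 0 genes of the table passed on either side (778 genes above and 3722 below Timp2 at an unadjusted p under 0.05, limma). The 6 lower calls, Adam3, Adam8, Adamts6, Adamts9, Adamts15 and Serpinc1, were not called in any fit with 1 mouse left out. Each passed the mean of 10 through 1 mouse and was not tested without it. That was mouse 1 for Adam3 and Adamts6 and mouse 2 for the others. Without mouse 1 or without mouse 3, limma called 0 genes of the table below Timp2 (13 and 35 at an unadjusted p under 0.05). Leaving out mouse 1 or mouse 3 therefore could not decide on the lower calls.

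The Adam family, membrane proteins of which the catalytic members act as sheddases, had 5 of 12 genes that reached 10 in each library. Adam17, which releases tumour necrosis factor and other membrane ligands, was at 10221, 2544 and 11889 normalised reads in mice 1, 2 and 3. Adam10, the sheddase of Notch receptors and many adhesion proteins, was at 3044, 2803 and 4156, a narrow range, and Adam17 exceeded it per kb in mice 1 and 3 (2.31-fold and 1.96-fold) but not in mouse 2 (0.623-fold). Adam9 was at 2939, 1485 and 4363. Adam19 was at 1736, 2921 and 5333. Adam33 was lower, at 1038, 210 and 974. These 5 catalytic members were therefore present in every library. By normalised level, mouse 2 was lowest for Adam17, Adam10, Adam9 and Adam33 and mouse 1 for Adam19. For Adam10 the order of mice 1 and 2 depends on the scaling between libraries.

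The remaining Adam genes were uneven or absent. Adam15, another catalytic member, was at 1101, 2.77 and 483. Adam22, a ligand receptor without protease activity, was at 266, 9.43 and 944. Adam8, known from activated leukocytes, was at 133 in mouse 2 and at 0 in both others. The non-catalytic Adam23 did not exceed 11.7, and Adam11, also non-catalytic, was at 0 in every mouse. Adam3 and Adam4, known from sperm, were above 10 in mouse 1 only, at 62.1 and 16.1. The 12 genes took 0.0536% ± 0.0236 of the reads.

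Tested against Adam17 in the same way, 5 of 42 members lay above it per kb (11.9%, against 4.25% of all genes) and 25 below (59.5%, against 56.4%). The 5 were again Wfdc17, Cst3, Cstb, Mmp13 and Mmp12. In limma without the trend, Cstb (adjusted p = 0.0712), Mmp13 (adjusted p = 0.102) and Mmp12 (adjusted p = 0.145) were not called. Without division by exon length, Cstb lay above Adam17 by a log2 difference of 0.07 (adjusted p = 0.939, limma). Mmp13 lay above Adam17 by a log2 difference of 3.05 ± 0.76 SE (adjusted p = 0.00239, limma) and Mmp12 by 2.76 ± 0.76 SE (adjusted p = 0.00724, limma), both in 3 of 3 mice. Without mouse 1 or without mouse 3, limma called 0 genes of the table on either side. The log2 difference of Mmp13 was then 3.25 ± 1.62 SE and 2.99 ± 1.17 SE, and that of Mmp12 3.36 ± 1.65 SE and 2.91 ± 1.16 SE. At an unadjusted p under 0.05 there were 176 genes above and 16 below Adam17 without mouse 1, and 489 and 103 without mouse 3. Most of the 25 members below Adam17 shared an adjusted p of 0.04997 (limma), just under the threshold. None of the 25 was called in a fit with 1 mouse left out, and several were not tested without mouse 1 or without mouse 2. Without mouse 2, limma called 195 genes of the table below Adam17. Adam10, Adam9 and Adam19, each above Adam17 in 1 of 3 mice, could not be separated from it by the test. Timp2 was not called either (adjusted p = 0.178, limma), though it was below Adam17 in 3 of 3 mice. Adam17 exceeded Timp2 by 3.18-fold, 2.18-fold and 4.04-fold per kb in mice 1, 2 and 3. Without division by exon length, Timp2 was called below Adam17 (adjusted p = 0.0375, limma). Timp3 was below Adam17 in 3 of 3 mice, by 56.6-fold, 1.92-fold and 427-fold per kb.

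Genes that work with sheddases were also read. Adam17 matures with the help of the iRhom proteins Rhbdf1 and Rhbdf2, and Adam10 with tetraspanins of the TspanC8 group. Rhbdf2, the iRhom of immune cells, was at 533, 301 and 4.93, and Rhbdf1 at 1.61, 326 and 0.705. Of the TspanC8 genes Tspan14 led, at 3734, 1202 and 3986. Tspan15 was at 0, 11.7 and 0, and Tspan5 did not exceed 2.22. Of the 11 listed partner genes, 2 reached 10 in each library. Among 17 listed substrates of these sheddases, 10 did so. The membrane chemokine Cxcl16 led them at 53788, 33969 and 43905, followed per kb by Csf1r (16267, 7431 and 18142) and the tumour necrosis factor receptor Tnfrsf1a (3085, 859 and 3874). Tnf itself was at 12.1, 218 and 59.9, and Trem2 was at 0.

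Adamts genes, whose secreted products cut proteoglycans and procollagens or act on fibrillin microfibrils, were low. None of the 10 Adamts and Adamtsl genes reached 10 in all 3 libraries. Adamts4, Adamts5 and Adamts12 were at 0 in all libraries, of which Adamts4 and Adamts5 are the main aggrecanases. Adamts1 was at 160, 0.555 and 113, and Adamts10 at 5.65, 718 and 101. Adamtsl4, a fibrillin-binding protein, was at 2747 in mouse 3 but at 14.5 and 8.88 in mice 1 and 2. Adamts6 was above 10 in mouse 1 only (186), and Adamts9 (152) and Adamts15 (33.3) in mouse 2 only. The family took 0.00403% ± 0.00383 of the reads.

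Plasminogen activation genes were low or uneven. Plau, urokinase, was at 18.5, 804 and 83.9 normalised reads in mice 1, 2 and 3. Its receptor Plaur was at 0, 0 and 5.64, and Plat, the tissue activator, at 0, 22.2 and 0. Serpini1, neuroserpin, which blocks the tissue activator, was at 3113, 294 and 4.93. Of 7 listed partners of fibrinolysis, 3 reached 10 in each library: Plgrkt (9571, 1579 and 19.7), a plasminogen receptor, and the annexin complex genes S100a10 (1380, 1255 and 574) and Anxa2 (32.3, 1541 and 7296).

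**Figure D2:**
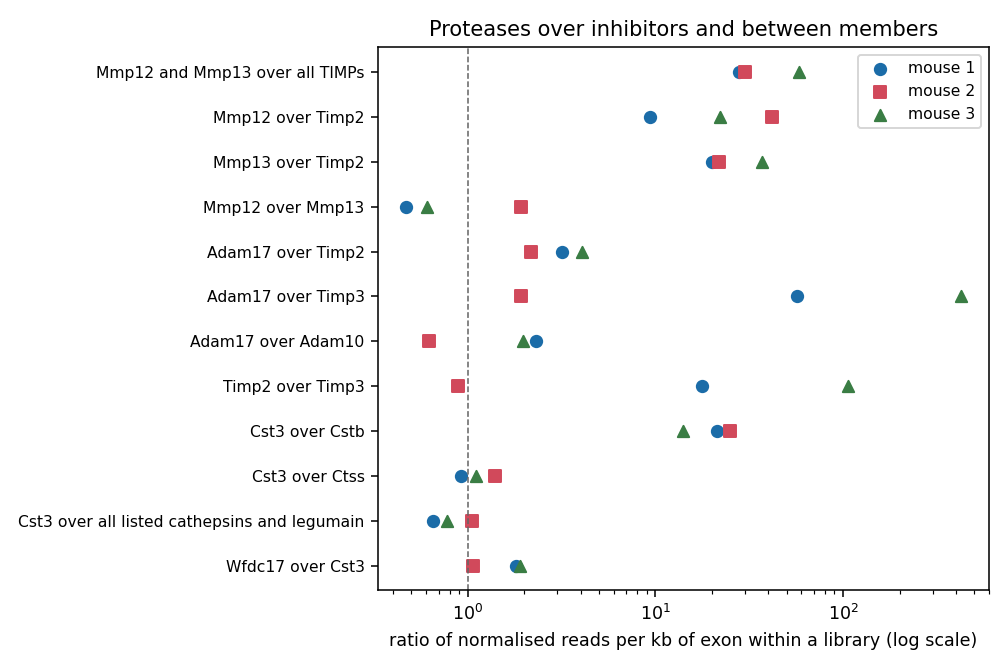
Ratios within each library of normalised reads per kb of exon on a log axis, for mouse 1 (circles), mouse 2 (squares) and mouse 3 (triangles), with the dashed line at equal levels. Mmp12 and Mmp13 together lie 27.7-fold to 58.3-fold above the Timp genes, Cst3 lies near Ctss, and Mmp12 over Mmp13 falls on both sides of the line.

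Serpins were mostly low, with 3 of 17 reaching 10 in each library. Serpinb6a, an intracellular inhibitor of serine proteases, was at 3036, 2745 and 4612, close together in the 3 mice. Serpinf1, pigment epithelium-derived factor, a secreted serpin without inhibitor activity, was at 3298, 3032 and 685. Serpina3g was at 5179, 250 and 12.7, and is an intracellular serpin known to block lysosomal cathepsins. Its close relative Serpina3f did not exceed 5.64, and reads can be shared between such copies. Of the clade b genes, Serpinb8 was at 281, 2512 and 6.34, and Serpinb9, the granzyme B inhibitor, at 119, 0 and 9.87. Serpinb7 was at 0 in every mouse. Serping1, the inhibitor of the first complement component, was at 365, 1.66 and 144. The 17 genes took 0.0287% ± 0.0118 of the reads.

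Several serpins known as plasma proteins had their highest level in mouse 2, while Serping1 and Serpinf1 did not. Serpinf2, the plasmin inhibitor, was at 1033 there and at 3.23 and 2.11 in mice 1 and 3. Serpinc1, antithrombin, was at 82.7, and the antitrypsin genes Serpina1a and Serpina1b at 64.4 and 23.3 in mouse 2, with none of these 3 above 2.42 elsewhere. Serpina1f, a relative by name that is not counted here as a plasma protein, was at 15.0 in mouse 2 and at 0 in both others. Serpina1a and Serpina1b are near-identical copies, so their separate values are uncertain. In all, 11 members were at 10 or more in mouse 2 only (16.9%), 5 in mouse 1 only (7.69%) and 0 in mouse 3 only, against 11.6%, 4.63% and 4.85% of all listed genes. Mouse 2 also had the highest summed level of proximal tubule markers (26020, against 6599 and 3987) and of distal and collecting duct markers (5876, against 250 and 1140). Other marker lists did not peak in mouse 2. The summed level of endothelial markers was 545, 135 and 1391 in mice 1, 2 and 3. That of fibroblast and mural cell markers was 962, 118 and 200, and that of podocyte markers 86.3, 283 and 415. Of 4 hepatocyte genes chosen after the values were seen, Alb did not exceed 0.705 and Fga was at 0 in every mouse. Ttr was at 15.3, 602 and 692 and Apoh at 0.806, 20.5 and 0. The part of other cells in these serpin levels was not tested.

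Cystatins held the largest share of the reads of any group, 0.838% ± 0.140 (0.753%, 1.00% and 0.762% in mice 1, 2 and 3). Cst3 was at 300644, 308903 and 263190 normalised reads in mice 1, 2 and 3 (290913 ± 24361), a narrow range after scaling. Cstb, the cytosolic cystatin B, was at 6753, 5880 and 8924, so that Cst3 exceeded it 21.2-fold, 25.0-fold and 14.0-fold per kb. Cst7, cystatin F, which acts inside endosomes and lysosomes of immune cells, was at 1822 in mouse 1 and at 1.66 and 3.52 in mice 2 and 3. Csta1 was at 0 in every mouse.

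The cathepsins and legumain, the proteases that cystatins are known to bind or that share their compartments, were high in these cells. Of 13 listed genes, 10 reached 10 in each library. Ctss, Ctsc and Ctsz led per kb, and Ctss was at 350807, 237309 and 254149. Per kb, Cst3 was at 0.919, 1.40 and 1.11 times the level of Ctss, so their order differed between mice. Against the sum of all 13 genes Cst3 was at 0.653, 1.05 and 0.778. Ctsk did not exceed 1.61.

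Of the WAP family, Wfdc17 was at 229489, 138018 and 210339 (192615 ± 48242), which is 1.81, 1.06 and 1.90 times Cst3 per kb in mice 1, 2 and 3. Not divided by length, Wfdc17 was below Cst3 in each mouse. Wfdc18, its neighbour on chromosome 11, was at 869, 201 and 113. Wfdc15b was at 811 and 976 in mice 1 and 2 and at 5.64 in mouse 3. Wfdc16 was at 94.3 in mouse 2 and under 1 in both others, and Wfdc2 did not exceed 3.33. The group took 0.532% ± 0.0783 of the reads, nearly all of it Wfdc17: without it the share was 0.00283%.

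The 4 Cstf genes, which entered by name, were at moderate levels. Cstf2t was at 2390, 810 and 3549, and Cstf3 at 1877, 725 and 1616. Cstf1 (1.61, 429 and 88.8) and Cstf2 (348, 547 and 4.23) were each under 10 in 1 mouse. Cstf2t is a copy of Cstf2, and reads can be shared between them.

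Every gene with a mean of 10 or more was also tested per kb against the median gene of its own library (limma, 11603 genes). Of 43 members tested, 12 lay above the median (27.9%, against 22.7% of all genes) and 5 below (11.6%, against 4.32%), while the other 22 members had a mean under 10. The log2 difference was 12.09 ± 0.17 SE for Wfdc17, 11.47 ± 0.18 SE for Cst3, 7.18 ± 0.33 SE for Cstb, 6.60 ± 0.36 SE for Mmp13 and 6.30 ± 0.38 SE for Mmp12. Next came Adam17 (3.55 ± 0.63 SE, adjusted p = 1.89e-07, limma) and Serpinf1 (3.32 ± 0.67 SE, adjusted p = 4.57e-06, limma). The others were Adam10, Adam9, Serpinb6a, Cstf2t and Adam19, and all 12 were above the median in 3 of 3 mice. Of these, 9 were called whichever mouse was left out, and Adam9, Cstf2t and Adam19 were not. The 5 below the median, Adam8, Adamts6, Serpinc1, Adamts9 and Adamts15, were not called in any fit with 1 mouse left out. Adamts6 passed the mean of 10 through mouse 1 and the others through mouse 2, and none was tested without that mouse. Without mouse 1 or without mouse 3, limma called 0 genes below the median (1 and 10 at an unadjusted p under 0.05), so those fits could not decide. Without the trend of spread with level, 0 genes passed on either side (2186 above and 1990 below at an unadjusted p under 0.05, limma).

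Ranked by mean level per kb, Wfdc17 lay clear of Cst3 in its range over mice, and Cst3 lay clear of Cstb. The order of Wfdc17 and Cst3 depends on the exon lengths used, 0.533 kb for Wfdc17 and 1.27 kb for Cst3. Not divided by length, Cst3 was above Wfdc17 in each mouse. The range of Cstb overlapped with that of Mmp13, and that of Mmp13 with that of Mmp12, while Mmp12 lay clear of Adam17. From Adam17 down, each of the members present in every mouse overlapped with the next one, so their order was not resolved beyond the spread.

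Spread between mice divided the members into steady and uneven genes. On the log2 scale with 1 added, the median SD over mice was 3.28 for the 43 members with a mean of 10 or more and 2.55 for all 11636 such genes. These medians are not matched for level. Against the 200 genes nearest in level, 19 of the 43 members had a spread under the median. So did 11 of the 19 members at 10 or more in every mouse. Of the 65 members, 18 were at 100 or more in 1 mouse and under 10 in another (27.7%, against 25.5% of all listed genes), a share near that of the table. They were highest in mouse 1 for 8 genes, in mouse 2 for 8 and in mouse 3 for 2. All such genes of the table were not counted by mouse, so these numbers cannot be read as a trait of the members. The libraries of mice 1, 2 and 3 had 12019, 12853 and 11883 genes above 0. The widest against its level was Cst7, whose spread exceeded that of 97.5% of the 200 genes nearest in level, followed by Mmp13 (95%) and Serpini1 (92.5%). Among members at 1000 or more in every mouse, Cst3 (7.5%), Adam10 (12.5%), Serpinb6a (17%) and Cstb (18.5%) were the steadiest by this measure.

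**Figure D3:**
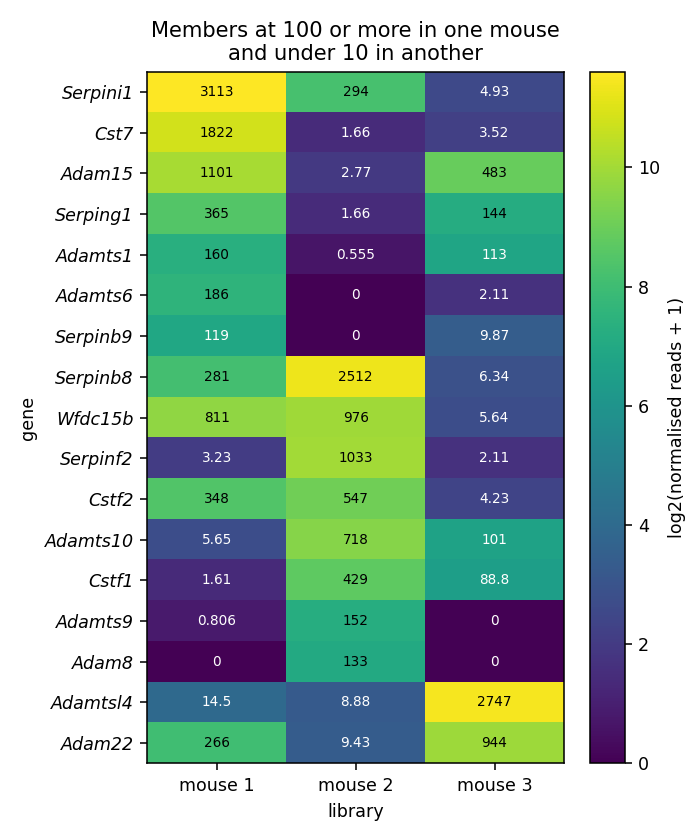
Normalised read counts (numbers) and their log2 after adding 1 (colour) in each mouse for 17 of the 18 members at 100 or more in 1 mouse and under 10 in another, ordered by the mouse with the highest value. Of the genes shown, 7 are highest in mouse 1, 8 in mouse 2 and 2 in mouse 3.

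**Figure D4:**
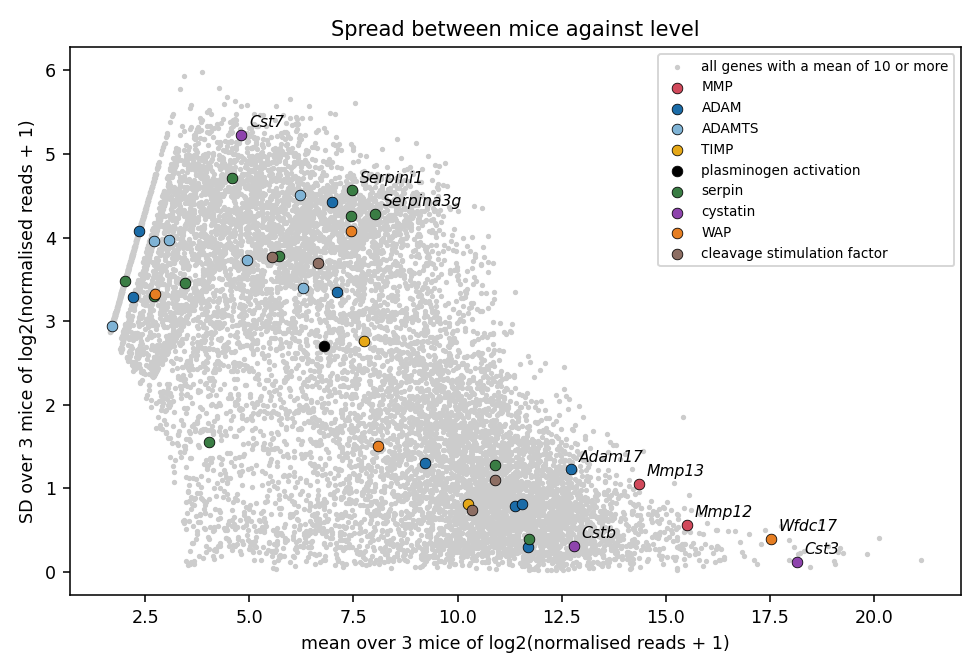
SD over 3 mice of the log2 level (y axis) against the mean log2 level (x axis) for all genes with a mean of 10 or more (grey) and for 42 members by family (colours). Cst3 and Wfdc17 lie at the high, narrow end, and Cst7, Serpini1 and Serpina3g among the widest.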

How the data were processed

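RNA of sorted kidney macrophages was amplified with SMART-seq version 4 and made into libraries from 10 ng of cDNA with 8 PCR cycles, per the labels' protocols. The deposited table is a normalised signal, made by the authors from HTSeq 0.5.4 counts per gene on mm9 with DESeq 1.18.0 scaling, per the submitters' processing notes, with neither aligner nor annotation stated. After removal of 1, the lowest value of each library, 100% of values were whole multiples of 1 step (tolerance 0.05), which gave the read totals. Reads carry no molecular identifiers, so limits cover counting error only.

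Exon lengths came from GENCODE M21, a later build, by gene identifier (99.6% of genes, all 65 members). Each is the union of all annotated exons of the gene, which can be longer than its main transcript. As strand is not stated, reads of 12 members with exon bases in another annotated gene cannot be told apart there. Among the genes named, these include Adam17, Adam15, Adam19, Mmp12, Serpinb6a, Serpinc1 and Timp3.

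Genes with a mean of 10 or more were tested within a library as log2(value + 1) per kb minus the library median, Adam17 or Timp2, with limma 3.58.1 (intercept only, trend of spread with level, R 4.3.3) and called at an adjusted p under 0.05. The prior degrees of freedom were infinite, so each SE is that of genes of like level, not of a gene's own 3 values. Only the fit against the library median was tested on simulated data. The fits against Adam17 and Timp2, where the error of 1 reference gene enters every difference, were not. Other steps used Python 3.11.15. Alternatives were another pseudocount, other filters, no length, no trend and each mouse left out.

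The members, lists and references were chosen with earlier results of these data known. The rule named the 30 highest members per kb, the 4 highest of each family, the reference genes, the 10 widest in spread and textbook genes at 0, and further members were named after their values were seen. Of the members counted, 1 is not reported here by name and is left out of the plots.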

Additional observations from a re-analysis of the deposited data

How the results depend on the processing

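No paired analysis was possible because the labels give a single group. The number of members at 10 or more in every mouse rose from 19 to 37 with any value above 0. With genes at 10 or more in every mouse only, limma called 1412 genes above and 318 below the library median (5 and 0 members), 1474 below Adam17 (2 members) and 255 below Timp2 (0 members). Without the trend, limma called 0 genes and 0 members on either side of the median and of Timp2, and 79 genes and 2 members above Adam17. Below Adam17, limma without the trend called 4372 genes and 18 members. With a pseudocount of 0.1, 60 genes and 1 member lay below the median and 132 genes and 2 members below Timp2. With all genes above 0, 2382 genes and 19 members lay below the median, and 3589 genes and 21 members below Timp2. Below Adam17 lay 9464 of 13791 genes and 39 of 55 members. Without division by length, 192 genes lay above Adam17 and 1344 below Timp2. With a mouse left out, limma called 2269 to 2413 genes above and 0 to 47 below the median (11 members above, 0 below), 0 to 443 above and 0 to 195 below Adam17 (0 to 5 members above, 0 below), and 1170 to 1322 above and 0 to 94 below Timp2 (5 to 7 members above, 0 below). Below the median, 0 genes were called without mouse 1 and without mouse 3, where 1 and 10 genes had an unadjusted p under 0.05 (limma). The cause of these shifts was not tested. Leaving out the highest gene, an alternative chosen after seeing the data, gave read shares of 0.0673% for Mmp, 0.00179% for Timp, 0.00283% for WAP, 0.00520% for Cstf and 0.0215% for cystatin genes. No called member changed direction under any alternative run. A count model and another scaling of counts were not run.

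With 3 libraries and 1 group, the values describe these mice only. Amplification from little RNA without molecular identifiers limits what single low values can show, and a level of 0 bounds the reads, not the transcripts in the cells.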

Other observations

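Some members are neighbouring protein-coding genes in the RefSeq order, and the levels of these pairs are given here. How often neighbouring genes of the whole table differ in level was not counted. The pairs therefore cannot be read as a trait of the members. Wfdc17 (192615 ± 48242, SD, n = 3) lies next to Wfdc18 (394 ± 413), and Serpinf1, present in every mouse, next to Serpinf2, which was high in mouse 2 only. Adamts1 (91.5 ± 82.2) lies next to Adamts5, which was at 0 in every mouse. Both neighbours reached 10 in each library for Mmp13 with Mmp12 and for Wfdc17 with Wfdc18. In the other pairs found, Serpina1f with Serpina1b, Serpina3f with Serpina3g, and Serpinb6b with Serpinb9, at least 1 gene was under 10 in 2 or more mice.

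Other regulators of metalloproteinases were read as well. Bsg, a membrane protein known to induce matrix metalloproteinases in nearby cells, was at 3700, 6928 and 8153 in mice 1, 2 and 3, and Sdc4, a membrane proteoglycan, at 1581, 1754 and 251. Reck, a membrane inhibitor of several matrix metalloproteinases, did not exceed 0.705, and Thbs1 was at 764 in mouse 2 and near 12 in both others.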
